A study of Caenorhabditis elegans with 2 samples.

Results

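The genes described here are 9 genes of the polarity machinery of the Caenorhabditis elegans zygote and its 14-3-3 proteins: par-1, par-2, par-3, par-4, par-5, par-6, pkc-3, cdc-42 and ftt-2. They are 9 of 19973 protein-coding genes on the 6 chromosomes of the genome build ce11 (WBcel235). The genes were listed by name, and the set was chosen by a rule with measured values in view: the signal score, the rank and the position of promoter peaks. Those values are therefore given as a description, without a test. The values come from chromatin immunoprecipitation with sequencing (ChIP-seq), which recovers DNA crosslinked to a protein, of F13C5.2, annotated as a bromodomain protein. The material was early embryos of both sexes collected 1 hour after synchronization by egg bleaching. All came from the strain OP605, genotype unc-119(tm4063) III; wgIs605, whose integrated transgene makes F13C5.2 with a C-terminal GFP-FLAG tag, and the immunoprecipitation used an antibody against GFP. There is 1 group, with biological replicates numbered 2 and 3, and no second condition. A single transgenic line stands for the protein, whole embryos mix all cells of the stage, and peaks of an untagged strain were not analysed here.

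In the zygote, the PAR proteins divide the cell cortex into an anterior and a posterior domain. PAR-3, PAR-6 and the atypical protein kinase C PKC-3, with the small GTPase CDC-42, occupy the anterior domain, and the kinase PAR-1 and the RING-domain protein PAR-2 occupy the posterior one. The kinase PAR-4 and the 14-3-3 protein PAR-5 are found throughout the cell, and 14-3-3 proteins bind phosphorylated partners. FTT-2 is the other well-known 14-3-3 protein of the worm.

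Each replicate gave a list of 30000 peaks, and a pooled list of 30000 was called on both replicates together. Each peak has a summit, the base of strongest enrichment, and a signal score assigned by the authors' peak caller, which is used here only to rank peaks within a list (rank 1 is the strongest). The irreproducible discovery rate (IDR) list holds the 1850 strongest peaks of the pooled list, with scores from 77.9 to 611. For each annotated 5′ end of a gene, summits were counted from 1000 bp before it to 200 bp after it, here called a promoter window. The read depth is unknown.

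An IDR summit lay in a promoter window of 3 of the 9 genes, ftt-2, par-2 and par-5, where 8.51% of all protein-coding genes had one. Any pooled-list summit was found for 8 of 9 genes, against 39.2% of all genes, and the exception was par-4. Replicate 2 alone gave a summit for 9 of 9 genes, against 41.1%, and replicate 3 for 8 of 9, against 39.6%. The same 3 genes had a peak among the top 1850 of both replicate lists, where 5.29% of all genes did. Because these values helped to choose the genes, nothing is read from the differences. Among the 7827 genes with a pooled summit, ordered by their best peak, ftt-2 stood at place 3, par-2 at 545, par-5 at 837, cdc-42 at 1818, par-1 at 2102, pkc-3 at 3329, par-6 at 4409 and par-3 at 6402. The weakest of the 3 genes inside the IDR list was par-5 (signal 109.8, rank 874) and the strongest outside it was cdc-42 (signal 74.8, rank 2011), on either side of the last IDR peak at 77.9. The −log10 q-value in the pooled list was at its maximum of 3.53 for ftt-2, par-2 and par-5, and was 2.91 for cdc-42, 2.64 for par-1 and 1.26 for pkc-3.

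**Figure D1:**
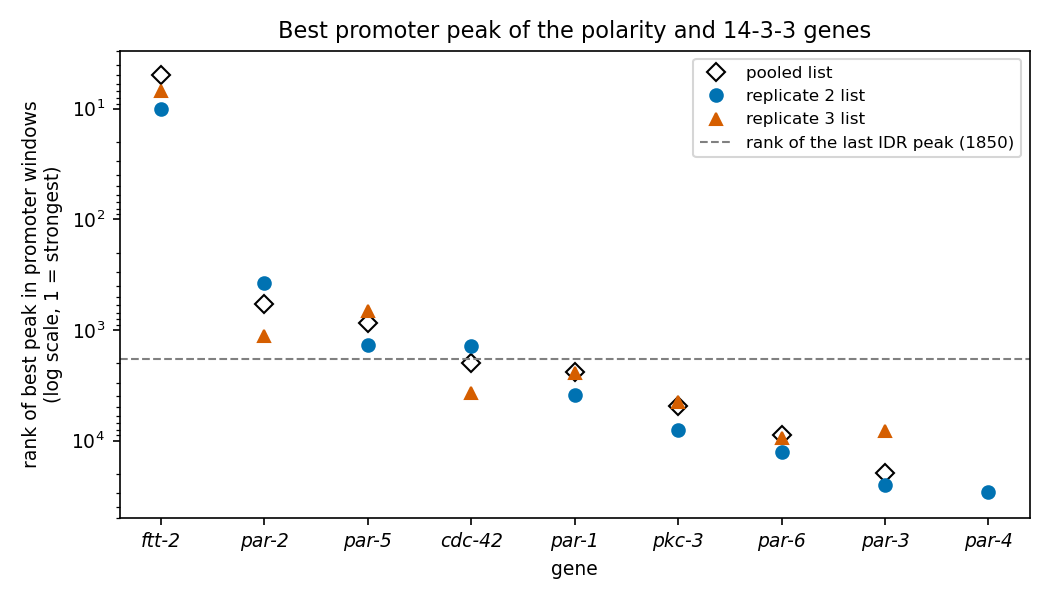
Rank of the best promoter peak of each gene (y axis, log scale, 1 is the strongest, so higher points are stronger) in the pooled list and the replicate 2 and 3 lists. The dashed line is rank 1850, the last IDR peak. The points of ftt-2, par-2 and par-5 lie above the line in all 3 lists, cdc-42 lies above it in replicate 2 only (rank 1410), and par-4 has a point in replicate 2 only (rank 29363).

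The strongest peak of the set lay upstream of ftt-2, which is on the minus strand of chromosome X at 11603708 to 11605419. Its summit at 11605912, 493 bp upstream, ranked 5 in the pooled list with a signal of 445, 10 in replicate 2 with 208 and 7 in replicate 3 with 238. A further summit at 11606115, 696 bp upstream, ranked 88 in the pooled list with 246, 400 in replicate 2 with 74.1 and 34 in replicate 3 with 167. The stronger summit thus held its place in both replicates, while the weaker one stood much higher in the order of replicate 3. Replicate summits were 1 and 39 bp from the pooled one at the stronger site and 7 and 37 bp away at the weaker one. Both summits share 1 peak interval of 614 bp (11605702 to 11606315), 203 bp apart. Of the 1850 IDR peaks, 2 intervals hold more than 1 summit. The other lies upstream of egg-5, named here after its values were seen, with ranks 8 and 107. Its rank 8 summit lies within the small nuclear RNA gene sls-2.4 and the non-coding RNA gene R12E2.18. Across all genes, 45 of the 1700 with an IDR summit had 2 or more in their windows.

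The stronger ftt-2 summit lies within the annotated non-coding RNA gene F52D10.7, and 12.5% of all IDR summits (231 of 1850) lie within an ncRNA gene. The next coding genes are distant. F52D10.2, which encodes a PID domain protein, is 11987 bp downstream, and F52D10.4, a predicted G-protein coupled receptor gene, is 12050 bp upstream. No other coding gene had either summit in a window. Another IDR peak lies beyond the 3′ end of ftt-2, with its summit at 11603338, 370 bp past the gene. It ranked 1367 in the pooled list with a signal of 90.8, 2578 in replicate 2 with 33.9 and 1104 in replicate 3 with 55.8.

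The reference sequences at the ftt-2 summits are shown because both summits are in the IDR list and no other coding gene has either in a window. They are the minus strand, 5′ to 3′, of ce11 chrX:11605812-11606012 (rank 5) and chrX:11606015-11606215 (rank 88), and the capitals mark the longest run shared by both.
ftt-2 rank 5: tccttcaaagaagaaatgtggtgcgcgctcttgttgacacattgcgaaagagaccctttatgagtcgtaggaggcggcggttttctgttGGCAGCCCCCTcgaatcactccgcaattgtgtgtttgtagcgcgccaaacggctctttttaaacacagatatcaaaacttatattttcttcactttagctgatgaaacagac
ftt-2 rank 88: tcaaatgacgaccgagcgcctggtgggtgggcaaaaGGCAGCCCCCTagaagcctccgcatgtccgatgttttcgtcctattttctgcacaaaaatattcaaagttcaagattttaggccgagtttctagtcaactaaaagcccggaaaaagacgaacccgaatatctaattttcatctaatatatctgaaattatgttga
The shared run is 11 bases long, GGCAGCCCCCT, and was picked out after the sequences were seen. It occurs 2 times on the 6 chromosomes, on either strand, both times here. Its first base is 11 bp from the stronger summit, within F52D10.7, and 64 bp from the weaker one, within the gene F52D10.9. Runs of this length are not rare between neighbours: 9 of 47 pairs of IDR summits 201 to 1000 bp apart, this pair included, shared 11 bases or more, with a median of 9. Those pairs were searched on both strands, while the ftt-2 run was found on a single strand. The GC share was 45.3% and 42.3%, where the median of all 1850 IDR windows of 201 bp was 44.8% and that of equally long windows upstream of all coding genes was 33.8%. Neither window holds any of the 6 motifs searched on both strands. TGCGTC was found in 22.2% of IDR windows and 6.4% of upstream windows. CCGCCC was found in 12.3% and 5.57% of them, and the palindrome CACGTG in 4.05% and 3.97%. The shares of the remaining motifs, GAGAGA as well as TATAAA and also TTTTTTT, are given with the sequences that hold them.

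The other 14-3-3 gene of the set, par-5, is on the minus strand of chromosome IV at 11820506 to 11821924. Its summit at 11822101, 177 bp upstream, ranked 874 in the pooled list with a signal of 109.8, 1368 in replicate 2 with 46.0 and 673 in replicate 3 with 68.4. The replicate summits were 43 and 3 bp away. This site is shared: the same summit is 105 bp upstream of M117.3, which is transcribed the other way from a start 281 bp from par-5, so par-5 has the farther 5′ end. RefSeq annotates M117.3 as a 14-3-3 domain-containing protein, and it gives 14-3-3 in the product name to 3 genes, M117.3, ftt-2 and par-5. The summit also falls within the ncRNA genes M117.11 and M117.12. M117.1, a transporter-family gene, is 747 bp downstream of par-5 and had a pooled peak of rank 7360.

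The sequence at the par-5 summit is shown because it lies between a pair of divergent 14-3-3 genes. It is the minus strand of ce11 chrIV:11822001-11822201, 5′ to 3′, and the capitals mark the match to GAGAGA, read on the opposite strand.
par-5: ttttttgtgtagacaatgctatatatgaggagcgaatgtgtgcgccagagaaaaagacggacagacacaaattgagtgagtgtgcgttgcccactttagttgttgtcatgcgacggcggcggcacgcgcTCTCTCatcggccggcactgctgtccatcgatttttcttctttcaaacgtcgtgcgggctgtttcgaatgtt
The GC share was 49.8%. GAGAGA was found in 39.7% of IDR windows and 15.7% of upstream windows, on either strand. None of the other motifs was found.

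**Figure D2:**
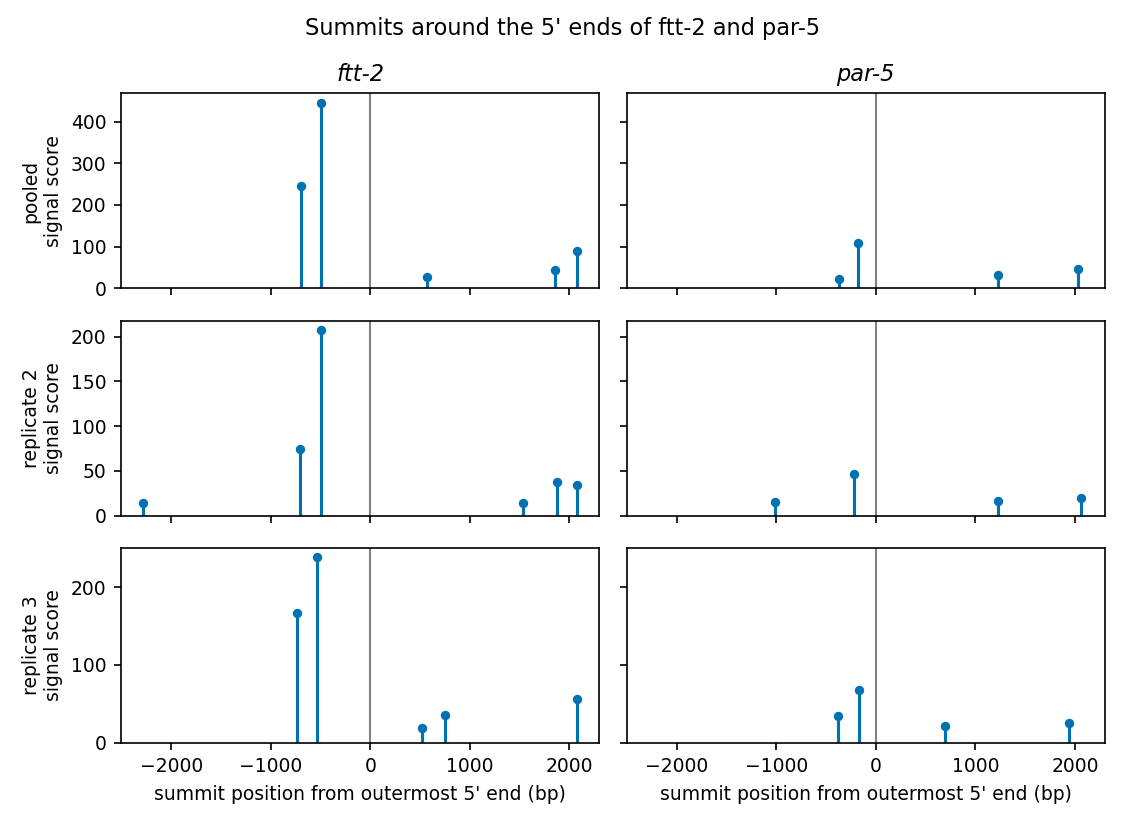
Signal score (y axis) of each summit against its distance from the outermost 5′ end (x axis, bp, negative upstream) for ftt-2 and par-5 in the pooled list and each replicate list, each list on its own scale. The tallest stems are the ftt-2 summit near 493 bp upstream, with a signal of 445 in the pooled list, and for par-5 the summit 177 bp upstream, with 109.8.

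Of the posterior genes, par-2 had an IDR promoter peak. The gene is on the plus strand of chromosome III at 1081401 to 1095082. Its summit at 1080764, 637 bp upstream, ranked 579 in the pooled list with a signal of 129, 379 in replicate 2 with 75.5 and 1134 in replicate 3 with 55.1. The order of the replicates is the opposite of that for par-5, which ranked higher in replicate 3. The summit is 14 bp from that of replicate 2 and 1 bp from that of replicate 3. It is not closest to par-2: it lies 11 bp inside the 5′ UTR of rab-18, a small GTPase gene on the other strand, and 137 bp upstream of kbp-4, a kinetochore-protein gene that ends 100 bp before par-2 on the same strand. The replicate 2 summit lies just outside rab-18. The strongest pooled summit at an internal 5′ end of par-2 had rank 7771 and a signal of 37.1. The next gene downstream, exc-6, is 8125 bp away and had no pooled summit in a window.

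The gap between rab-18 and kbp-4 is shown because the summit lies at its edge, 12 bp outside the first base. It is the plus strand of ce11 chrIII:1080776-1080900, 5′ to 3′, and the capitals mark matches to TTTTTTT and, on the opposite strand, TATAAA.
par-2 gap: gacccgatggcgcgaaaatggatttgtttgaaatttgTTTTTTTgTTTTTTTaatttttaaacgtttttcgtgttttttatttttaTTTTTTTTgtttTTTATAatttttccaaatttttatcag
The gap is 125 bp long with a GC share of 21.6%, while the 201 bp window centred on the summit had 38.8%. That summit window holds 2 matches to TTTTTTT and none to TATAAA, so the TATAAA match lies in the gap outside it. Among windows of 201 bp, not gaps, TTTTTTT was found in 25.4% of IDR windows and 42.1% of upstream windows. For TATAAA these shares were 12.4% and 25.7%.

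The kinase gene par-1, on the minus strand of chromosome V at 14112033 to 14145367, has 11 annotated 5′ ends and thus 10771 bp of promoter windows, the most of the set. Its best window summit, at 14128114 and 59 bp upstream of an internal 5′ end, ranked 2398 in the pooled list with a signal of 68.1, 3873 in replicate 2 with 28.2 and 2453 in replicate 3 with 39.4. None of its 12 pooled window summits reached the IDR list. One intronic summit did: at 14139526, 1593 bp past the nearest 5′ end and within the ncRNA gene AH10.8, it ranked 1214 in the pooled list with 96.3, 1121 in replicate 2 with 50.3 and 1515 in replicate 3 with 48.6. It is the one IDR summit inside the body of any of the 9 genes. The genes beside par-1, H39E23.2 and acs-10, had no pooled summit in a window. Over all genes, 7.12% of genes with 1 end had an IDR summit and 20% of the 45 genes with 10 or more. For any pooled summit these shares were 32.3% and 97.8%.

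Of the anterior genes, none had an IDR promoter peak, and cdc-42 came closest. It is on the plus strand of chromosome II at 7616452 to 7618245. Its summit at 7615643, 809 bp upstream, ranked 2011 in the pooled list with a signal of 74.8, 1410 in replicate 2 with 45.3 and 3758 in replicate 3 with 32.8. The replicates thus fall on opposite sides of rank 1850. The summit lies within the ncRNA gene R07G3.14, and the nearest IDR summit, at rpa-1, is 48057 bp from the cdc-42 5′ end. The neighbour oig-4, 2016 bp upstream, had no pooled window summit, and R07G3.8, which overlaps the 3′ end, had one of rank 8870.

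The cdc-42 window is shown as the strongest promoter site of the set outside the IDR list. It is the plus strand of ce11 chrII:7615543-7615743, 5′ to 3′, and the capitals mark GAGAGA on the opposite strand and TTTTTTT.
cdc-42: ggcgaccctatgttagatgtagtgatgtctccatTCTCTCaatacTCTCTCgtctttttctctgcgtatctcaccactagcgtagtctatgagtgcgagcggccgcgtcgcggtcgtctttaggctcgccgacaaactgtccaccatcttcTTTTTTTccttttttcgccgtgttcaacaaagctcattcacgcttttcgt
The GC share was 48.8%, and GAGAGA was matched 2 times.

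The gene pkc-3, on chromosome II at 5380027 to 5384169, had its best summit 230 bp upstream, at 5379797 within the ncRNA gene F09E5.22. It ranked 4910 in the pooled list with a signal of 46.3, 8047 in replicate 2 with 20.7 and 4485 in replicate 3 with 30.5, the last with its summit 101 bp away. The nearest IDR summit is 6529 bp upstream, in the 5′ UTR of agt-2, at rank 1178. Its neighbours are prdx-2, a peroxiredoxin gene 395 bp upstream with a pooled peak of rank 21873, and ccpp-6, with none.

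The genes of the scaffold proteins PAR-6 and PAR-3 had weaker peaks still. For par-6, at 12669380 to 12674449 on chromosome I, the best summit was 167 bp inside a 5′ end and ranked 8943 in the pooled list with a signal of 34.9, 12783 in replicate 2 with 16.8 and 9478 in replicate 3 with 22.5. The upstream gene T26E3.4, an RWD domain gene on the same strand that ends 486 bp before par-6, had an IDR peak of rank 791 and signal 114, which is 4321 bp upstream of par-6. The downstream gene ndx-1 had a pooled peak of rank 12890. For par-3, on chromosome III at 5664233 to 5676795, the single pooled summit lay 794 bp upstream of an internal 5′ end and ranked 19591 with a signal of 23.5, and the replicate 3 summit 24 bp away ranked 8140 with 23.9. Replicate 2 had no summit within 100 bp of it, the nearest being 300 bp away, and its own best window summit ranked 25086. The neighbours F54E7.6 and F54E7.9 had no pooled window summit, and the nearest IDR summit, 10594 bp from a par-3 5′ end and closest to ska-3, had rank 83 and a signal of 251.

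The kinase gene par-4, on chromosome V at 18098687 to 18106405, had no summit in its windows in the pooled list or in replicate 3. Replicate 2 had 2, of ranks 29363 and 29752, near the end of its list. The nearest IDR summit is 19306 bp away in an intron of nova-1, at rank 1436. The neighbours of par-4, slr-2 and Y37H2A.1, had pooled window peaks of ranks 5260 and 15149. Over all 9 genes, 3 of 18 next-door coding genes had an IDR summit in a window, where 8.51% of all protein-coding genes had one. For kbp-4 and M117.3 it was the same summit as the member's, which leaves T26E3.4 with a summit of its own.

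Summits also lay within the gene bodies. The body of par-1 held 32 pooled-list summits, that of par-3 held 9 with a best rank of 3430, and that of par-2 held 8 with a best rank of 7771. The body of par-4 held 2, the stronger of rank 6594, and that of pkc-3 held none. That of par-6 held 3, and those of par-5, cdc-42 and ftt-2 held 1 each. These counts were not scaled by gene length, which was 33335 bp for par-1 and 4143 bp for pkc-3. Of the windows at the weaker promoter summits, that of pkc-3 holds CCGCCC, that of par-6 holds TGCGTC and TTTTTTT, that of par-1 holds TATAAA and TTTTTTT, and that of par-3 holds none of the motifs.

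**Figure D3:**
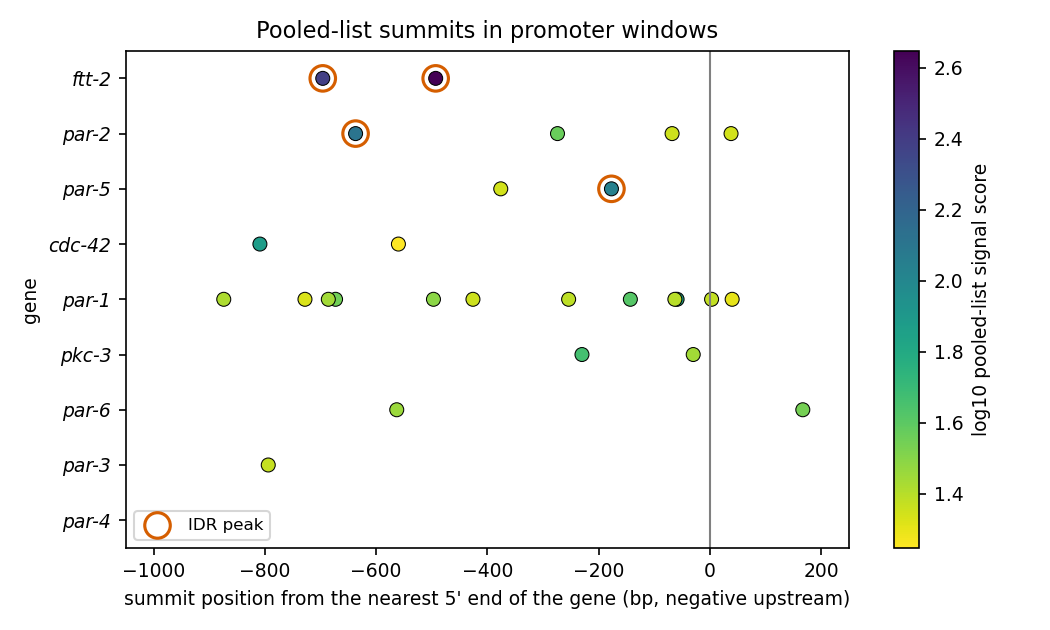
Position of every pooled-list summit in the promoter windows (x axis, bp from the nearest 5′ end of the gene, negative upstream) for each gene (y axis), coloured by the log10 signal score, with IDR peaks ringed. The 4 ringed summits lie 696, 493, 637 and 177 bp upstream, and par-4 has no point.

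For ftt-2, par-2 and par-5, the genes whose best promoter IDR peak ranked most alike were sought. The measure was the distance between log10 ranks in both replicate lists, over 2 samples. For par-2, among 1588 genes, they were Y53H1C.3 and ego-2, which share 1 peak (ranks 390 and 1141 in replicates 2 and 3, distance 0.0127). For par-5, among 1589 genes, they were phf-10 (1360 and 655, distance 0.0120) and nhr-1 (1414 and 638, distance 0.0273). For ftt-2, among 1590 genes, they were sre-23 (16 and 8, distance 0.212) and T02E1.2 (9 and 13, distance 0.273).

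Of 53 other polarity genes, listed with earlier results known, 11 (20.8%) had an IDR promoter summit and 42 (79.2%) a pooled one, against the 8.51% and 39.2% of all genes. The median best pooled rank was 3855 for those with a pooled summit, 2204.5 for the 8 genes of the set with one and 6849 for all 7827 genes with one. Over all genes, the shares with an IDR or a pooled summit rise with the number of annotated 5′ ends, which was not matched here. By class, IDR summits were found for 3 of 9 PAR partners and opponents, 1 of 13 actomyosin genes, 3 of 11 cytoplasmic effectors, 3 of 15 spindle positioning genes and 1 of 5 epithelial polarity genes. Among the partners and opponents, lgl-1, a posterior cortical protein gene, ranked 1017 in the pooled list (signal 103, 136 bp upstream), the kinase gene pig-1 ranked 1308 (93.0) and chin-1, which encodes a GTPase-activating protein for CDC-42, ranked 1440 (88.2).

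The strongest of the 53 were mex-1 and spn-4, genes of RNA-binding proteins of the early embryo. For mex-1 the peak ranked 372 in the pooled list (signal 151), 331 in replicate 2 and 633 in replicate 3, and lay 917 bp upstream but closer to W03C9.5. For spn-4 it ranked 519 (134), 275 and 1159, and was closer to spe-39. The kinase gene mbk-2 ranked 1627 (83.1). Of the spindle genes, dnc-1, a dynactin subunit gene, ranked 1108 (100.3), lin-5 ranked 1365 (90.8) and lis-1 ranked 1835 (78.1). The junction gene ajm-1 ranked 1499 (86.6) and nop-1, needed for pseudocleavage, ranked 1809 (78.7). In 4 of the 11, mex-1, spn-4, chin-1 and nop-1, another gene had the nearest 5′ end. Among these 11, pig-1 ranked 510 in replicate 2 and 5883 in replicate 3, and nop-1 ranked 1494 and 6019, each with replicate summits within 100 bp of the pooled one. For ajm-1 the nearest replicate 2 summit ranked 598, while the nearest replicate 3 summit, of rank 7354, was 256 bp away and may be another peak. The same holds for the nearest replicate 3 summits of lin-5 (rank 3618, 122 bp away) and lis-1 (rank 1637, 116 bp away). A top 1850 peak in both replicates was found for 3 of the 53, lgl-1, mex-1 and spn-4, which is 5.66%, against 5.29% of all genes and so near the background. With summits required within 100 bp of the pooled one, the count was 2, since the replicate 2 summit of lgl-1 was 109 bp away.

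**Figure D4:**
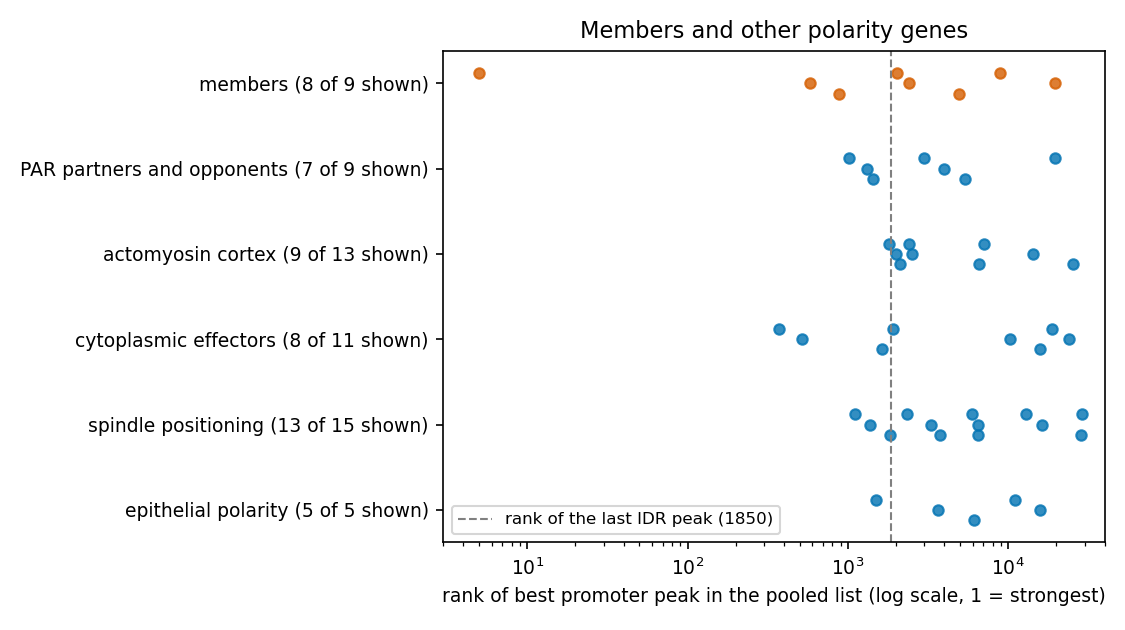
Rank of the best promoter peak in the pooled list (x axis, log scale, 1 is the strongest) for the 9 genes and the 5 classes of other polarity genes, 1 point per gene with a summit. Points left of the dashed line (rank 1850) are in the IDR list: 3 of 9 genes of the set and 11 of 53 others, with ftt-2 alone at rank 5.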

How the data were processed

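Peak lists on ce11 were analysed for 2 biological replicates, a pooled list and the optimal IDR list. The deposited signal value is a score on a scale not given in the sources used here, and the deposited lists also hold a −log10 q-value, tied at its maximum of 3.53 for 1692 pooled peaks, so peaks were ranked by score. The authors called each list with 2 control alignments, as the submitters' file descriptions state. The same sources name no peak caller, aligner or IDR threshold for these lists. Read depth is unknown, and no interval is given. The ce10 lists were not used here.

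Summits were tied to 5′ ends of protein-coding transcripts of Ensembl release 115 on chromosomes I to V and X, and gene products and sequences came from RefSeq on the same assembly, where 99.79% of 31853 coding starts read ATG. A summit counted for every gene whose window held it. Each pooled summit was set beside the nearest summit of each replicate, and one over 100 bp away may be another peak. Motifs were searched in windows of 201 bp at summits and, for the background, 250 to 50 bp upstream of the outermost 5′ end, in place of a promoter table. The planned comparison of 14-3-3 protein sequences was not analysed here. Python 3.11.15, numpy 2.4.6, pandas 2.3.3 and matplotlib 3.10.9 were used, and the window assignment was tested on simulated data.

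The members and lists were chosen with earlier results of these data known. The rule for named genes took all 9 members, genes sharing a summit and next-door genes, polarity genes with an IDR summit (up to 15), and the 2 genes most alike in replicate ranks. Alternatives were other window lengths, the outermost or nearest 5′ end, any overlap, the upper 50% of IDR peaks, each replicate alone and, chosen after seeing the data, RefSeq 5′ ends. For each replicate alone, the top peaks of its own list were used, as many as the IDR list holds.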

Additional observations from a re-analysis of the deposited data

How the results depend on the processing

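No paired analysis was possible because there is 1 group and no test. The count of 3 of 9 genes with an IDR promoter summit was 1 when each summit went only to the gene with the nearest 5′ end, leaving ftt-2, since rab-18 and M117.3 are nearer to the par-2 and par-5 summits. It was 2 with 500 bp upstream, which drops par-2 (7.01% of all genes). With a replicate left out, the IDR list was not used. The top peaks of the other replicate's own list, as many as the IDR list holds, took its place. By that rule the count was 3 without replicate 2 (7.36% of all genes) and 4 without replicate 3 (8.9%), where cdc-42 joined. The count with an IDR summit was 3 with 2000 bp, the outermost 5′ end, any overlap, the upper 50% of IDR peaks and RefSeq 5′ ends. The last was chosen after seeing the data. The count of 11 of 53 other polarity genes was 7 with the nearest 5′ end, 2 with the upper 50% of IDR peaks and 8 with 500 bp. It was 9 with the outermost 5′ end, 11 with RefSeq 5′ ends, 14 with any overlap and 16 with 2000 bp. By the top peaks of the other replicate's own list, it was 6 without replicate 2 and 12 without replicate 3. All genes moved too, from 8.51% to 6.13% with the nearest 5′ end, 4.46% with the upper 50%, 7.97% with the outermost 5′ end, 7.71% with RefSeq 5′ ends, 9.26% with any overlap and 11.1% with 2000 bp. Of 36 recomputed member signals, 31 kept their value and 5 did not: par-2 was 37.1 at 500 bp, par-3 was 32.1 at 2000 bp and 23.6 with any overlap, and par-6 was 28.7 with the outermost or RefSeq 5′ ends. At 500 bp cdc-42 and par-3 had no summit, nor had par-1 and par-3 at the outermost 5′ end. For par-4, a summit of signal 21.9 appeared at 2000 bp and one of 40.0 with any overlap. With no read depth, the error of a single score is unknown.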
